A study of Mus musculus with 6 samples.

Results

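The cytosolic ribosomal proteins were followed in mouse macrophages given medium from normal or apoptotic chondrocytes, the cells of cartilage. Genes were chosen by symbol: names made of Rpl or Rps and a number, with an optional single letter, plus Rplp0, Rplp1, Rplp2 and Rpsa, leaving out entries named as pseudogenes. This gave 88 of the 52550 genes in the table. They comprise 46 genes for proteins of the large 60S subunit, 31 for the small 40S subunit, 7 paralogs of these (Rpl3l, Rpl7l1, Rpl10l, Rpl22l1, Rpl39l, Rps27l and Rps4l) and 4 entries that GENCODE M21 lists as processed pseudogenes (Rpl6l, Rps12l1, Rps3a2 and Rps3a3).

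Both groups were primary macrophages from the bone marrow of C57BL/6 mice, grown for 7 days in macrophage colony-stimulating factor at 25 ng/ml. The first group then received medium of normal chondrocytes (C CM) and the other medium of apoptotic chondrocytes (AC CM), with 3 libraries each. Read counts summed to between 65630784 and 80105872 per library. The labels state neither the origin of the chondrocytes nor how long the medium was left on. Whether the 3 libraries per group stem from different animals or cultures is not stated, so p-values measure only the spread between these libraries, which may be technical. AC CM replicates 2 and 3 stood apart by hepatocyte markers, which summed to 629 and 1408 CPM there against 40.5 to 87.9 CPM in the other 4 libraries. CPM is the read count scaled to a common library total.

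A cytosolic ribosome is built from ribosomal RNA and about equal numbers of each ribosomal protein, so cells make these proteins in matched amounts and degrade unassembled copies. Their mRNAs are short, very abundant, and in general begin with an uninterrupted stretch of C and U letters called the TOP motif. The kinase mTOR controls translation of TOP mRNAs through the RNA-binding protein LARP1, while MYC raises transcription of many ribosome genes. In macrophages, activation and growth factor signals act on the same controls.

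The stretch of C and T letters is visible in the DNA around many of these genes' starts, shown here because it is the sequence feature that defines TOP genes. Each line is a RefSeq window of GRCm38.p6 from 50 bases before to 25 bases after the RefSeq start, 5′ to 3′, with the longest run of at least 8 C or T letters in capitals. The first 5 genes fell after AC CM (Rps9, Rps18, Rpl31, Rpl7a and Rpl10a), and Rpl4, Rpl5, Rps24 and Rps27l did not pass the test. Rpl7l1 and Rpl36al, a ribosomal protein gene outside the naming rule, rose, and neither window holds such a run. Not every gene that fell has a run: the windows of Rplp0, Rpl10, Rpl37a and Rpl41, which also fell, hold none and are not shown.
Rps9: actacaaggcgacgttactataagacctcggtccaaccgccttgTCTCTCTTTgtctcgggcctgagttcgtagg
Rps18: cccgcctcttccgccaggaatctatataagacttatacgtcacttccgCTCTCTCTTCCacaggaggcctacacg
Rpl31: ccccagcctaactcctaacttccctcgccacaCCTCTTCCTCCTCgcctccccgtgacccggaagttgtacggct
Rpl7a: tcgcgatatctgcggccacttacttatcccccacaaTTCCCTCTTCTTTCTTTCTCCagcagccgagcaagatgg
Rpl10a: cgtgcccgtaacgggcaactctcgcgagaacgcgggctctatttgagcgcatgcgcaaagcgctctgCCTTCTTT
Rpl4: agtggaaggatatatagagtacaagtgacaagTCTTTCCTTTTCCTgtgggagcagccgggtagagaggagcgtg
Rpl5: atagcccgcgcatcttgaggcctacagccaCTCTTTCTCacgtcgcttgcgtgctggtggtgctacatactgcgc
Rps24: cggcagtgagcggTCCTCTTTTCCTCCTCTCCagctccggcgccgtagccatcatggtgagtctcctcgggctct
Rps27l: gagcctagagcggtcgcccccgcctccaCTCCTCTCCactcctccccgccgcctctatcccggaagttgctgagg
Rpl7l1: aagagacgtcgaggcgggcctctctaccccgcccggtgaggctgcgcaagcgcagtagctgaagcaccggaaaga
Rpl36al: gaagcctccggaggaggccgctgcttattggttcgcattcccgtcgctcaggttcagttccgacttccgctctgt
The windows of genes that fell lie at chr7:3703991-3704065 on the plus strand (Rps9), chr17:33955641-33955715 on the minus strand (Rps18), chr1:39367801-39367875 on the plus strand (Rpl31), chr2:26910757-26910831 on the plus strand (Rpl7a) and chr17:28328515-28328589 on the plus strand (Rpl10a). The other windows lie at chr9:64173337-64173411 on the plus strand (Rpl4), chr5:107900478-107900552 on the plus strand (Rpl5), chr14:24490703-24490777 on the plus strand (Rps24), chr9:66946036-66946110 on the plus strand (Rps27l), chr17:46782632-46782706 on the minus strand (Rpl7l1) and chr12:69184043-69184117 on the minus strand (Rpl36al).

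Across the 57 subunit genes with a RefSeq window, 34 (59.6%) held such a run on the transcribed strand, against 27.2% of the windows of 10756 other genes. On the opposite strand the shares were 21.1% and 28.3%. The run was found in 13 of the 21 windows of genes that fell and in 21 of the 36 windows of genes that did not pass the test. RefSeq and GENCODE starts lay within 10 bases of each other for 18 of the 57 genes, so a run near the window's centre need not be the mRNA's first bases.

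Other promoter letters were searched on both strands in the whole 300-base windows, which span 250 bases before and 50 after the start. The ETS-factor motif CCGGAAG was in 38.6% of the subunit genes' windows and 17.1% of the others, in 10 of 21 genes that fell and 12 of 36 that did not pass. The GC box GGGCGG was in 59.6% against 62.9%, the MYC-binding E-box CACGTG in 8.8% against 9.8%, and the YY1 motif AAGATGGC in 7.0% against 4.5%. TATAAA between 45 and 16 bases before the start was in 1.6% of the other genes' windows and in 0 of the 57. These are letter matches only, and no factor's binding was measured.

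After AC CM most ribosomal protein mRNAs were lower by a small amount. Of 86 members that passed the filter on low counts, 26 fell at an adjusted p under 0.05 (edgeR's quasi-likelihood test, Benjamini-Hochberg adjustment over all 17863 genes tested), where 13.3% of all genes fell. A single member, Rpl7l1, rose, where 13.3% of all genes rose, and 59 did not pass. The median log2 fold change of the 86 was -0.22, against -0.0046 for all genes tested, and 77 of the 86 were below 0. In 50 of the 86, all 3 AC CM libraries lay below all 3 C CM libraries, a pattern seen in 22.1% of all genes tested, and the 26 that fell are among those 50. The reverse pattern, seen in 22.6% of all genes, held for Rpl7l1, Rps24 and Rps27l. Among the 26, Rpl26 fell by 11.9% and Rpl37, at the other end, fell by 37.3%. At the median of the 77 subunit genes the level dropped by 14%. These are shares of the sequenced mRNA, so fewer cells of a type and less of an mRNA per cell cannot be told apart. In what follows, a value after "at" beside a gene is its log2 fold change, AC CM over C CM.

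**Figure D1:**
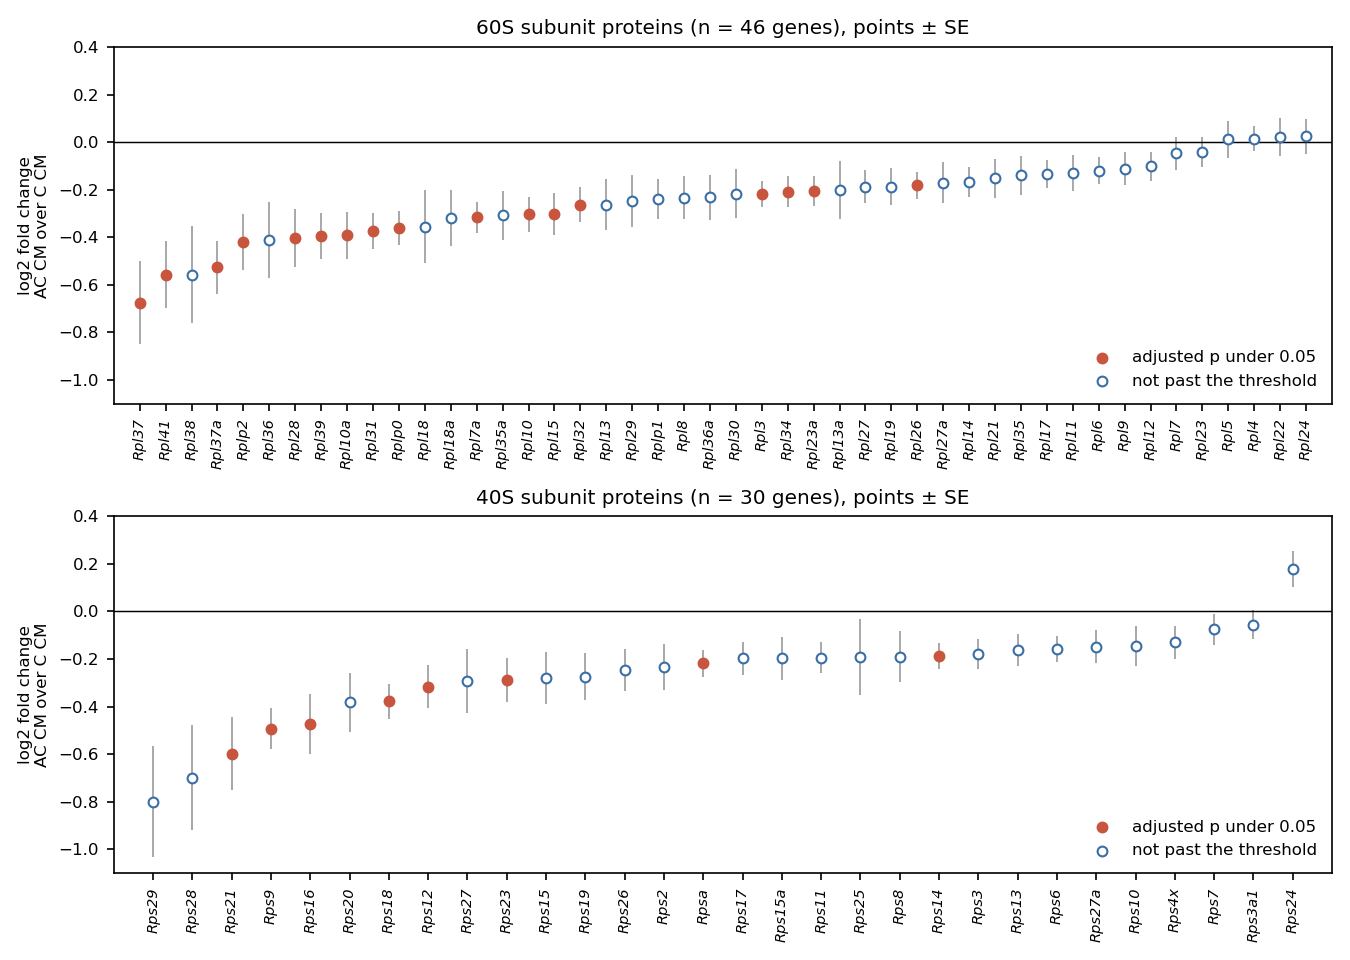
Log2 fold change (vertical axis, AC CM over C CM) of each 60S gene (upper panel, 46 genes) and 40S gene (lower panel, 30 of the 31 genes; 1 that fell is not reported here), ordered within a panel, with bars of ± SE. Filled points, 17 in the upper and 8 in the lower panel, have an adjusted p under 0.05 and all lie under the zero line, as do 42 and 29 of all points in the upper and lower panel.

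The number of calls depended on single libraries. Leaving out AC CM replicate 3 left 6 members that fell, AC CM replicate 2 left 7, C CM replicate 2 left 11 and AC CM replicate 1 left 16, and 72 of the 77 subunit genes were below 0 in each of the 6 fits with a library left out. With AC CM replicates 2 and 3, which carry the hepatocyte marker counts, both left out, edgeR called 0 members lower. At an unadjusted p under 0.05 it gave 3 of 86 lower, a smaller share than the 11.5% of all 19329 genes tested in that fit. Of the members 75 of 86 were still below 0, and the median was -0.18; the lone AC CM library was there assumed to vary like the C CM libraries.

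5 genes fell in the full fit and in each of those 6 fits: Rps9, Rps18, Rplp0, Rpl31 and Rpl7a. Their positions are those of the deposited table.

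Rps9 encodes a 40S protein at the site where mRNA enters the ribosome, and its gene (ENSMUSG00000006333.14, chr7:3703993-3706897, plus strand) has 5 exons in GENCODE M21. It measured 572, 474 and 459 CPM in the 3 C CM libraries and 362, 357 and 349 CPM in the 3 AC CM libraries. The lowest C CM library lay well above the highest AC CM library, and the log2 fold change was -0.49 (adjusted p = 0.00312, SE 0.09). Rps18, a 40S head protein (chr17:33951999-33956001, minus strand, 5 exons), measured 361, 347 and 312 CPM in the 3 C CM libraries and 272, 259 and 253 CPM in the 3 AC CM libraries, again without overlap, with a log2 fold change of -0.38 (adjusted p = 0.00488, SE 0.07). Its locus is overlapped on the other strand by Vps52, which holds 10% or more of its counts. Without stated strand counting, reads of the 2 genes cannot be told apart.

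Rplp0, the base of the flexible P stalk that recruits translation factors (chr5:115559467-115563727, plus strand, 7 exons), measured 1730.5, 1492 and 1478 CPM in the 3 C CM libraries and 1253, 1209 and 1200.5 CPM in the 3 AC CM libraries. The groups did not overlap, C CM replicate 1 was the highest library, and the log2 fold change was -0.36 (adjusted p = 0.00625, SE 0.07). Rpl31, beside the tunnel through which new proteins leave (chr1:39367842-39371911, plus strand, 4 exons), measured 379, 385 and 338 CPM in the 3 C CM libraries and 298, 291 and 262 CPM in the 3 AC CM libraries, with a log2 fold change of -0.37 (adjusted p = 0.00712, SE 0.08). It overlaps Tbc1d8 on the other strand, and entries named as its pseudogenes hold 8.511% as many counts as it does. Rpl7a, a 60S surface protein (chr2:26910764-26913318, plus strand, 8 exons), measured 754, 689.6 and 658 CPM in the 3 C CM libraries and 568, 562 and 558 CPM in the 3 AC CM libraries. Its AC CM libraries were nearly equal, the C CM libraries were all higher, and the log2 fold change was -0.32 (adjusted p = 0.00718, SE 0.07).

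**Figure D2:**
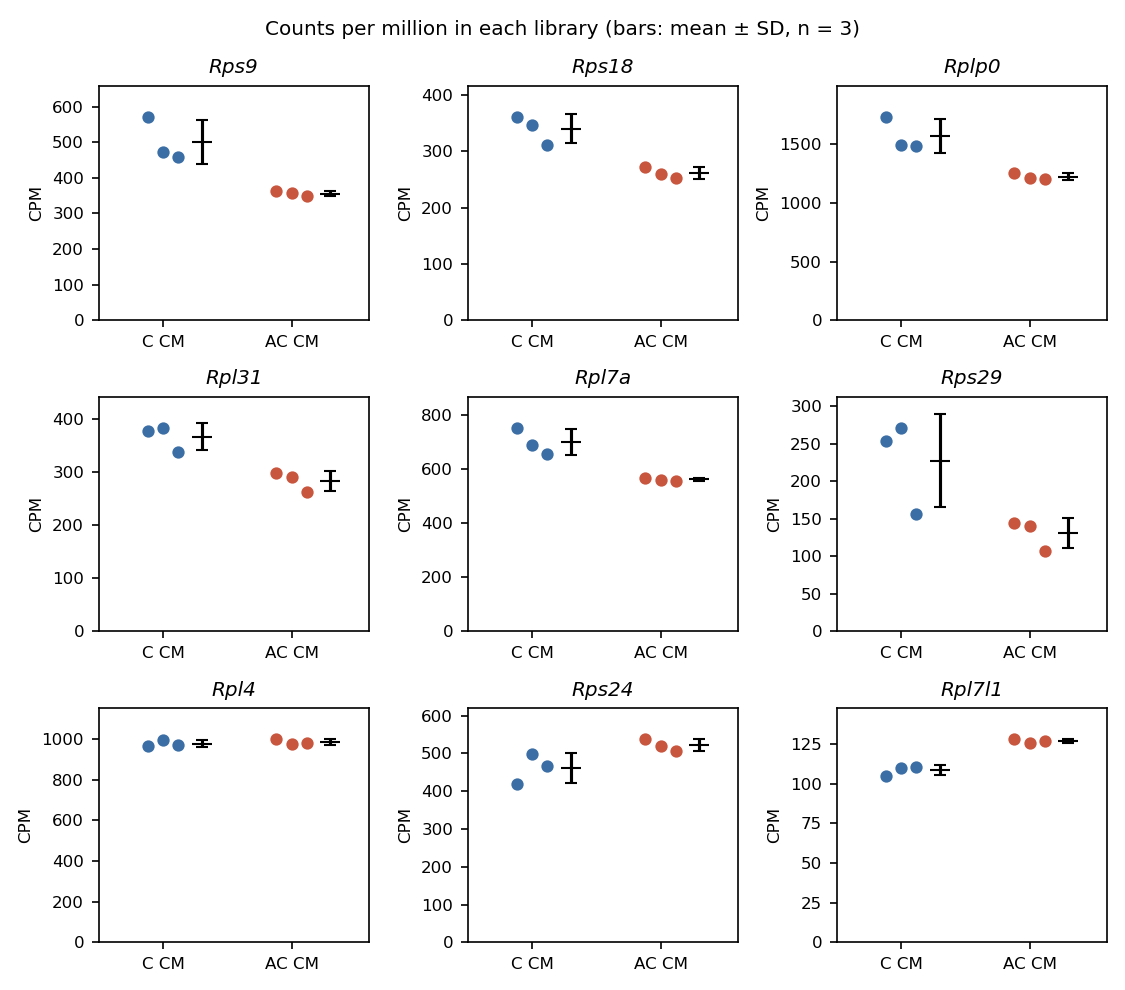
CPM (vertical axis, from 0) of 9 genes in each of the 6 libraries, with mean ± SD beside each group of 3. Rps9, Rps18, Rplp0, Rpl31 and Rpl7a have all AC CM points below all C CM points, Rps29 has the lowest log2 fold change of the 9 but its C CM points spread from 156 to 272 CPM, Rpl4 overlaps between groups, and Rps24 and Rpl7l1 have all AC CM points above.

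Of the 46 genes of the 60S subunit, 17 fell, where 13.3% of all genes fell, and the other 29 did not pass the test. The median log2 fold change of the 46 was -0.22. In 31 of the 46 the groups did not overlap, all with AC CM lower, a pattern of 22.1% of all genes. Beside Rplp0, Rpl31 and Rpl7a, the members that fell with the smallest p were Rpl37a at -0.53 (adjusted p = 0.00841, SE 0.11), Rpl39 at -0.39 (adjusted p = 0.0160, SE 0.10), Rpl10 at -0.30 (adjusted p = 0.0166, SE 0.07) and Rpl3 at -0.22 (adjusted p = 0.0178, SE 0.05). Next came Rpl10a at -0.39 (adjusted p = 0.0197, SE 0.10) and Rpl41 at -0.56 (adjusted p = 0.0208, SE 0.14). Rpl10 is added last to the 60S subunit and helps form the site where tRNAs bind. Rpl3 lies near the catalytic centre where peptide bonds form. Rpl41, one of the smallest proteins known, measured 663, 550.4 and 447 CPM in the 3 C CM libraries and 407, 386 and 336 CPM in the 3 AC CM libraries, so its C CM libraries were far apart yet all above the AC CM ones. Entries named as Rpl10 pseudogenes hold together 10.964% as many counts as Rpl10, and those of Rpl17 12.048%, so part of the reads of these genes may be placed elsewhere.

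The P stalk and its base, which bind the translational GTPases, have 4 genes in the list. All 4 had AC CM libraries wholly below the C CM ones, as had 22.1% of all genes and 58.1% of the members. Their median log2 fold change was -0.30. Rplp0 and Rplp2 fell, the latter at -0.42 (adjusted p = 0.0286, SE 0.12). Over all genes 13.3% fell, and over the members 30.2%. Whether any site named here or below differs from the members as a whole was not tested. Rplp1 measured 1140.3, 994 and 901 CPM in the 3 C CM libraries and 881, 858 and 834 CPM in the 3 AC CM libraries, a log2 fold change of -0.24 (adjusted p = 0.0695, SE 0.09), and Rpl12 was at -0.10 (adjusted p = 0.261, SE 0.06). Rplp1 and Rplp2 are the acidic stalk proteins and Rpl12 sits at the stalk's base.

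Around the peptide exit tunnel, 4 of 9 genes fell: Rpl31, Rpl39, Rpl26 at -0.18 (adjusted p = 0.0396, SE 0.06) and Rpl23a at -0.20 (adjusted p = 0.0418, SE 0.06). Beside them, 13.3% of all genes and 30.2% of the members fell. Rpl23a and Rpl35 form the docking site for the signal recognition particle. Rpl35 was at -0.14 (adjusted p = 0.251, SE 0.08), Rpl19 at -0.19 (adjusted p = 0.114, SE 0.08) and Rpl17 at -0.13 (adjusted p = 0.134, SE 0.06), none past the test. Rpl4, whose loop lines the tunnel wall, measured 963, 994 and 972 CPM in the 3 C CM libraries and 1002, 974 and 982 CPM in the 3 AC CM libraries. The groups overlapped, and the log2 fold change of 0.01 (adjusted p = 0.879, SE 0.05) was -0.01 with upper quartile scaling. Rpl22 was at 0.02 (adjusted p = 0.868, SE 0.08).

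Rpl5 and Rpl11 bind the 5S ribosomal RNA and, outside the ribosome, the p53 regulator MDM2. Rpl5 measured 515, 625 and 597 CPM in the 3 C CM libraries and 593, 591 and 567 CPM in the 3 AC CM libraries, and its log2 fold change of 0.01 (adjusted p = 0.935, SE 0.08) was -0.01 with upper quartile scaling. All its AC CM values lay within the C CM range. Rpl11 measured 391, 351 and 327 CPM in the 3 C CM libraries and 328, 336 and 315 CPM in the 3 AC CM libraries, with a log2 fold change of -0.13 (adjusted p = 0.252, SE 0.08), and neither passed the test.

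Of the 31 genes of the 40S subunit, 9 fell and the other 22 did not pass the test. Over all genes 13.3% fell, and over the members 30.2%. The median log2 fold change of the 31 was -0.22, close to that of the 60S genes. Of the 31, 18 had AC CM libraries wholly below the C CM libraries, as had 22.1% of all genes. The entry and decoding sites have 5 genes on the list, of which Rps9 and Rps23 fell, Rps23 at -0.29 (adjusted p = 0.0458, SE 0.09). Rps3 was at -0.18 (adjusted p = 0.0657, SE 0.06), Rps15 at -0.28 (adjusted p = 0.0947, SE 0.11) and Rps2 at -0.23 (adjusted p = 0.114, SE 0.10). At the mRNA exit, 2 of 4 fell: Rpsa, also known as the laminin receptor, at -0.22 (adjusted p = 0.0220, SE 0.06), and Rps14 at -0.19 (adjusted p = 0.0362, SE 0.06). Rps26 was at -0.25 (adjusted p = 0.0702, SE 0.09). In the beak of the subunit, Rps12 fell at -0.32 (adjusted p = 0.0296, SE 0.09), while Rps27a, made as a fusion with ubiquitin, was at -0.15 (adjusted p = 0.145, SE 0.07) and Rps10 at -0.15 (adjusted p = 0.239, SE 0.08).

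Some of the lowest log2 fold changes did not pass the test used here. Rps28 and Rps29, described next, were called lower in the authors' deposited comparison, at their adjusted p under 0.05. Rps28, a small protein at the mRNA exit, measured 162, 141 and 94.8 CPM in the 3 C CM libraries and 96.1, 80.6 and 67.8 CPM in the 3 AC CM libraries. Its C CM replicate 3 lay under the highest AC CM library, and the log2 fold change was -0.70 (adjusted p = 0.0630, SE 0.22). Rps29, a zinc-binding protein of the 40S head, was singled out after its values were seen because its log2 fold change is the lowest of the 77. It measured 254, 272 and 156 CPM in the 3 C CM libraries and 144, 140.1 and 108 CPM in the 3 AC CM libraries. The groups did not overlap, but C CM replicate 3 was close to the AC CM libraries and the log2 fold change was -0.80 (adjusted p = 0.0526, SE 0.23). The spread over the C CM libraries, as a coefficient of variation, was 27.3% for Rps29 against a median of 9.83% for the 77 genes. Over the AC CM libraries that median was 4.50%, and the highest was Rps25 at 22.3%.

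Rps24, a 40S protein whose mRNA has several splice forms, lay in the other direction. It measured 418, 498 and 467 CPM in the 3 C CM libraries and 539, 519.9 and 506 CPM in the 3 AC CM libraries. All AC CM libraries were above all C CM libraries, and the log2 fold change was 0.18 (adjusted p = 0.112, SE 0.07). It is the 1 subunit gene with this order, and the 60S genes above 0 (Rpl4, Rpl5, Rpl22 and Rpl24) had overlapping groups. Rpl24 was at 0.02 (adjusted p = 0.846, SE 0.07).

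The shortest genes had the lowest median fold change. The 16 subunit genes with coding sequences under 350 bases had a median log2 fold change of -0.415, the 39 of 350 to 600 bases -0.19 and the 22 longer ones -0.21. Other protein-coding genes tested in the same length ranges had medians of -0.01 (511 genes), 0.03 (1317 genes) and 0.00 (12131 genes). In the short class 6 of 16 fell, 12 of 39 in the middle class and 8 of 22 in the long class, where 12.9%, 13.6% and 15.5% of the other genes fell. The short genes' C CM libraries also spread most, with a median coefficient of variation of 15.7%, against 7.53% and 7.13% in the other 2 classes. Over the 77 genes, Spearman's rho between fold change and coding length was 0.45 and Pearson's r 0.45. With mature transcript length, rho was 0.36 and r was 0.21. The rho was 0.35 with mean CPM and -0.335 with GC content. These are descriptions across genes of the same 6 libraries. Among short genes, Rps21 fell at -0.60 (adjusted p = 0.0241, SE 0.15) and Rpl37 at -0.67 (adjusted p = 0.0282, SE 0.17), both named after their values were seen. Rpl38 measured 128, 132 and 81.2 CPM in the 3 C CM libraries and 87.3, 79.1 and 65.4 CPM in the 3 AC CM libraries, overlapped in 1 library, and was at -0.56 (adjusted p = 0.0909, SE 0.20). In the authors' deposited comparison Rpl38 was called lower, at their adjusted p under 0.05.

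**Figure D3:**
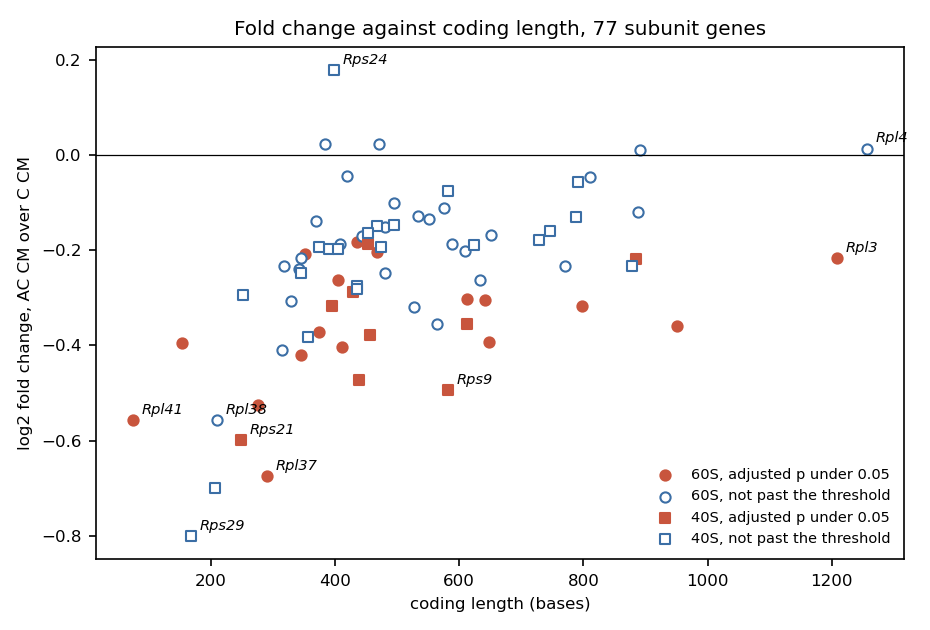
Log2 fold change (vertical axis, AC CM over C CM) against coding length in bases (horizontal axis) for the 77 subunit genes, circles for 60S and squares for 40S, filled where the adjusted p is under 0.05. The 16 genes under 350 bases have a median of -0.415 and reach the lowest values, while the 22 genes over 600 bases have a median of -0.21.

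The same libraries were highest or lowest for many of the genes. Among C CM libraries, replicate 1 was the highest for 45 of the 77 subunit genes and replicate 2 for 31, and replicate 3 was the lowest for 54. Among AC CM libraries, replicate 1 was the highest for 65 and replicate 3 the lowest for 66. All 88 members together held 3.87%, 3.64% and 3.47% of all counts in the C CM libraries and 3.23%, 3.12% and 2.998% in the AC CM libraries. With up to 80105872 counts per library, the 95% Clopper-Pearson interval of the last runs from 2.9946% to 3.0021%, and such intervals cover counting error only. The groups did not overlap, at 3.66% ± 0.204 after C CM and 3.12% ± 0.114 after AC CM (SD, n = 3), with no test. The 60S genes went from 2.19% ± 0.127 to 1.86% ± 0.0624 and the 40S genes from 1.44% ± 0.0773 to 1.23% ± 0.0512.

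**Figure D4:**
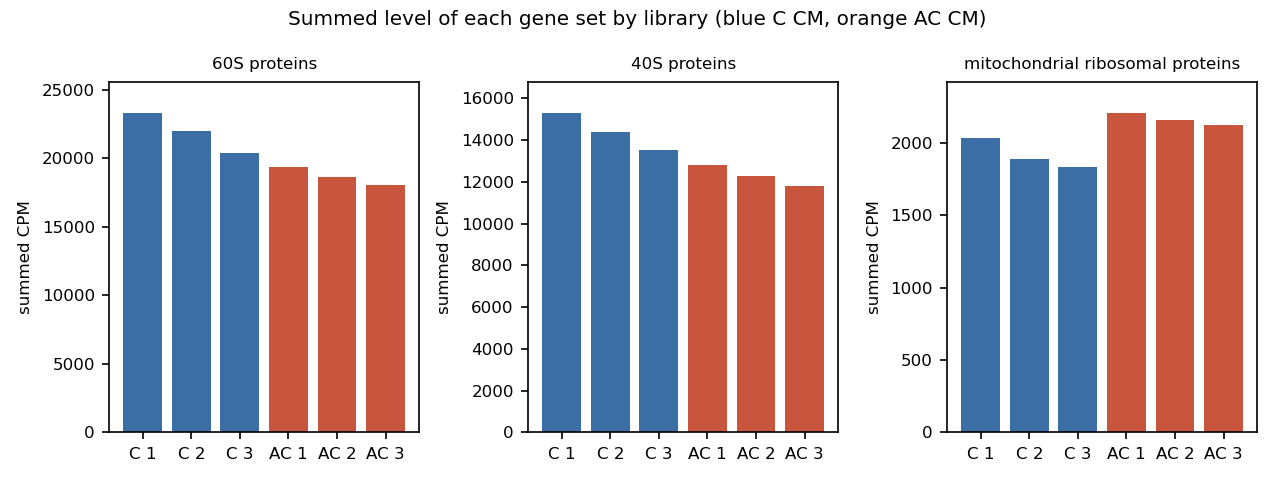
Summed CPM (vertical axes, from 0) of the 46 genes of the 60S subunit, the 31 of the 40S subunit and 78 mitochondrial ribosomal protein genes in each library, C CM in blue and AC CM in orange. For both cytosolic subunits every AC CM bar is below every C CM bar, and for the mitochondrial genes every AC CM bar is above.

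Levels of different members were compared per kilobase of annotated mature transcript and ranked by the mean over all 6 libraries. Rps4l, Rpl6l, Rps12l1, Rps3a2 and Rps3a3 have no annotated protein-coding transcript, so they have no such level and were left out of the ranking. The 5 highest were Rplp1 at 2028 ± 242 after C CM and 1719 ± 47.4 after AC CM CPM per kb (SD, n = 3), Rpl13 at 1219 ± 211 after C CM and 1016 ± 13.5 after AC CM, Rplp0 at 1154 ± 105 after C CM and 899 ± 20.7 after AC CM, Rps12 at 1098 ± 119 after C CM and 881 ± 61.7 after AC CM and Rps15 at 1039 ± 164 after C CM and 855 ± 61.4 after AC CM. After C CM, each of Rpl13, Rplp0, Rps12 and Rps15 differed from the next by less than their SDs, and after AC CM the same held from Rplp0 to Rps15. After AC CM alone, Rps14 at 879 CPM per kb was above Rps15. The 5 lowest were Rpl39l at 8.03 ± 1.06 after C CM and 8.89 ± 1.21 after AC CM CPM per kb, Rpl22l1 at 31.9 ± 7.52 after C CM and 26.5 ± 1.53 after AC CM, Rpl7l1 at 41.7 ± 1.19 after C CM and 48.7 ± 0.555 after AC CM, Rps15a at 77.9 ± 9.09 after C CM and 68.0 ± 3.93 after AC CM and Rps20 at 88.9 ± 16.3 after C CM and 68.2 ± 5.22 after AC CM. The first 3 of these are paralogs. Rps15a and Rps20 have annotated transcripts of 5130 and 3706 bases with long untranslated ends, which lowers their level per kilobase. Rpl13, a 60S surface protein, was at -0.26 (adjusted p = 0.107, SE 0.11) on the log2 scale of the difference, and Rps20 at -0.38 (adjusted p = 0.0507, SE 0.12).

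Paralogs are second genes for a ribosomal protein, often used in particular tissues. Of 7, Rpl3l (0, 0 and 4 counts after C CM, 0, 9 and 0 after AC CM) and Rpl10l (0 counts in all 6 libraries) were too low to test. Rpl7l1 (ENSMUSG00000063888.6, chr17:46773907-46782656, minus strand), found in nuclear particles that assemble the 60S subunit, measured 105, 110.1 and 111 CPM in the 3 C CM libraries and 128, 126 and 127 CPM in the 3 AC CM libraries. All AC CM libraries were above all C CM libraries, and the log2 fold change was 0.22 (adjusted p = 0.0228, SE 0.06). The call was lost when any of the 3 AC CM libraries was left out, with an adjusted p of up to 0.0957. Its parent Rpl7 measured 498, 558 and 566 CPM in the 3 C CM libraries and 514, 549 and 509 CPM in the 3 AC CM libraries, with overlapping groups and a log2 fold change of -0.05 (adjusted p = 0.675, SE 0.07).

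Rps27l, a target of p53, measured 62.6, 64.7 and 59.0 CPM in the 3 C CM libraries and 72.9, 73.4 and 64.8 CPM in the 3 AC CM libraries, without overlap and with a log2 fold change of 0.18 (adjusted p = 0.124, SE 0.08), while Rps27 was at -0.29 (adjusted p = 0.148, SE 0.14). Rpl39l, typical of testis, was at 0.15 (adjusted p = 0.550, SE 0.16) where Rpl39 fell. Rpl22l1 was at -0.27 (adjusted p = 0.284, SE 0.17), Rps4l, a transcribed processed pseudogene in GENCODE M21, at 0.05 (adjusted p = 0.864, SE 0.16) and its parent Rps4x, on the X chromosome, at -0.13 (adjusted p = 0.207, SE 0.07). The difference between a paralog and its parent was not tested. The 4 processed pseudogene entries were all low, with group means from 1.90 to 4.70 CPM, and did not pass the test.

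Of 4 tested ribosomal protein genes that the naming rule misses, 2 fell and 1 rose, where 13.3% of all genes went each way. Of these 4, 3 are described here. Rack1, a signalling scaffold on the 40S head, measured 777, 746 and 729.8 CPM in the 3 C CM libraries and 672, 651 and 636 CPM in the 3 AC CM libraries and fell at -0.20 (adjusted p = 0.0290, SE 0.06). Fau, which makes Rps30, measured 610.4, 474 and 429 CPM in the 3 C CM libraries and 421, 426 and 396 CPM in the 3 AC CM libraries, without overlap, and was at -0.28 (adjusted p = 0.116, SE 0.12). Rpl36al, a second gene for Rpl36a, measured 106, 103 and 97.7 CPM in the 3 C CM libraries and 126, 131 and 119 CPM in the 3 AC CM libraries and rose at 0.29 (adjusted p = 0.0123, SE 0.07), while Rpl36a was at -0.23 (adjusted p = 0.105, SE 0.09).

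Genes mutated in Diamond-Blackfan anaemia, an inherited failure of red cell production, include 18 members. Of these 3 fell, namely Rpl31, Rpl15 at -0.30 (adjusted p = 0.0324, SE 0.09) and Rpl26, beside 13.3% of all genes, and the median was -0.22. The share that fell, 16.7%, is near that of all genes, and over the members 30.2% fell. Rps19, the gene most often mutated in it, measured 324, 287 and 251 CPM in the 3 C CM libraries and 256, 235 and 221 CPM in the 3 AC CM libraries, with a log2 fold change of -0.27 (adjusted p = 0.0728, SE 0.10). Its AC CM replicate 1 lay above its lowest C CM library.

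Other genes of the translation machinery were read beside the members. Mitochondrial ribosomal proteins, which translate mRNAs of the mitochondrial genome, had a median log2 fold change of 0.18 over 78 genes. Of these 21 rose, beside 13.3% of all genes, 1 fell and 56 did not pass. Mrps10 measured 16.1, 15.1 and 17.7 CPM in the 3 C CM libraries and 29.9, 27.2 and 27.6 CPM in the 3 AC CM libraries and rose at 0.79 (adjusted p = 0.000563, SE 0.10). Mrps28 rose at 0.91 (adjusted p = 0.000876, SE 0.12) and Mrpl33 at 0.62 (adjusted p = 0.000895, SE 0.09), and Mrpl9 fell at -0.37 (adjusted p = 0.00842, SE 0.08). Without AC CM replicate 1 the count that rose was 13. The summed share of counts went from 0.193% ± 0.0093 after C CM to 0.216% ± 0.00400 after AC CM.

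Factors that build ribosomes in the nucleolus had 44 of 64 genes that rose, beside 13.3% of all genes. Their median was 0.47, and the other 20 did not pass. Utp20, part of the particle that processes 40S precursors, measured 34.0, 37.4 and 37.96 CPM in the 3 C CM libraries and 73.6, 69.9 and 73.5 CPM in the 3 AC CM libraries and rose at 0.99 (adjusted p = 3.65e-05, SE 0.08). Nop56, of the particle that methylates ribosomal RNA, rose at 0.82 (adjusted p = 5.67e-05, SE 0.07), and the nucleolar helicase Ddx21 at 0.82 (adjusted p = 5.68e-05, SE 0.07). Chaperones and importers that carry new ribosomal proteins to the nucleus had 9 of 16 tested genes that rose, beside the same share of all genes. Their median was 0.43. The importin Ipo5 measured 160.3, 183 and 178 CPM in the 3 C CM libraries and 259, 260.3 and 250.2 CPM in the 3 AC CM libraries and rose at 0.56 (adjusted p = 0.000479, SE 0.07). Ltv1, which holds Rps3 in the 40S precursor, rose at 0.70 (adjusted p = 0.000712, SE 0.09), and Grwd1, a chaperone of Rpl3, at 0.81 (adjusted p = 0.000792, SE 0.11). Tsr2, a chaperone of Rps26, rose at 0.92 (adjusted p = 0.00110, SE 0.13) and was added after its value was seen. Of these clients, Rpl3 fell, and Rps3 and Rps26 did not pass.

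Of 37 initiation factors 12 rose and 5 fell (3 without AC CM replicate 1 or 2), where 13.3% of all genes went each way, and the median was 0.15. The share that fell is near that of all genes. The cap-binding protein gene Eif4e measured 45.3, 53.1 and 55.5 CPM in the 3 C CM libraries and 125, 119.9 and 113 CPM in the 3 AC CM libraries and rose at 1.22 (adjusted p = 2.98e-05, SE 0.09). Eif4a1 rose at 0.55 (adjusted p = 0.000448, SE 0.07) and Eif2s3x at 0.71 (adjusted p = 0.000524, SE 0.09), and Eif2a fell at -0.40 (adjusted p = 0.00440, SE 0.07). The list of elongation and termination factors holds 13 genes, with Eef1e1 and Eef2k counted among them though they do not encode such factors. Of these 13, 5 rose (3 when any 1 AC CM library was left out) and 2 fell, beside the same shares of all genes. Here too the share that fell, 15.4%, is near that of all genes. Eef1e1 rose at 1.179 (adjusted p = 9.77e-05, SE 0.11), the ribosome recycling factor Abce1 at 0.78 (adjusted p = 0.000649, SE 0.10) and the release factor Gspt1 at 0.44 (adjusted p = 0.000997, SE 0.06). Eef2 fell at -0.46 (adjusted p = 0.00203, SE 0.07), as did Eef2k, the kinase that inactivates its product, at -0.75 (adjusted p = 0.000151, SE 0.07).

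**Figure D5:**
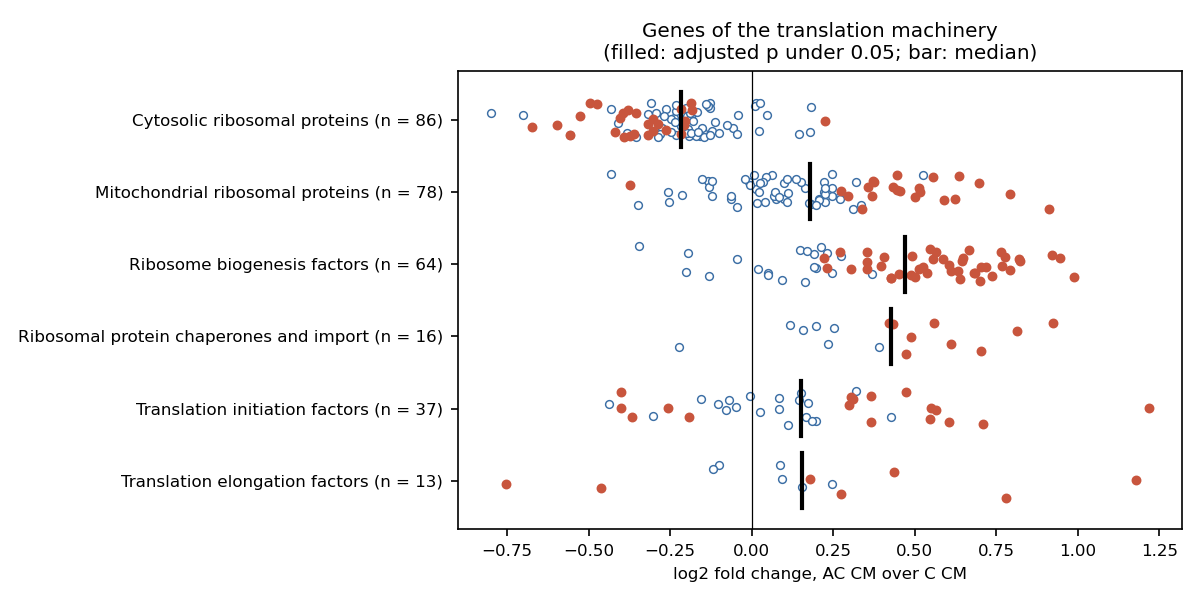
Log2 fold change (horizontal axis, AC CM over C CM) of each gene in 6 gene sets, with points spread vertically for legibility, filled where the adjusted p is under 0.05, and a bar at the set's median. The 86 cytosolic ribosomal proteins have a median of -0.22, the 78 mitochondrial ones 0.18 and the 64 biogenesis factors 0.47.

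Genes outside the ribosome whose mRNAs also carry the TOP motif were read next. Of 20 such genes, 5 fell and 3 rose, where 13.3% of all genes went each way, with a median of -0.05, and 12 did not pass. The share that rose, 15.0%, is near that of all genes. Eef2 measured 3349, 2874 and 2788 CPM in the 3 C CM libraries and 2173, 2205 and 2163 CPM in the 3 AC CM libraries, the groups did not overlap, and Eif3f at -0.40 (adjusted p = 0.00443, SE 0.08) and Eif3k at -0.37 (adjusted p = 0.01, SE 0.08) fell with it. Vim rose at 0.20 (adjusted p = 0.0217, SE 0.05), Eef1g at 0.18 (adjusted p = 0.0377, SE 0.05) and Cct2 at 0.19 (adjusted p = 0.0421, SE 0.06). The count that fell was 3 when any 1 AC CM library was left out and 8 without C CM replicate 1. Of 7 TOP genes that host small nucleolar RNAs, Snhg5 rose at 0.57 (adjusted p = 0.0308, SE 0.16) and the others did not pass. This share that rose, 14.3%, is near that of all genes.

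Among 26 regulators of ribosomal protein output, 6 rose, 6 fell and 14 did not pass, where 13.3% of all genes went each way. Larp1 measured 135, 136 and 133 CPM in the 3 C CM libraries and 178, 186 and 177 CPM in the 3 AC CM libraries and rose at 0.42 (adjusted p = 0.000954, SE 0.06). Myc measured 13.3, 11.9 and 11.4 CPM in the 3 C CM libraries and 17.3, 18.3 and 21.1 CPM in the 3 AC CM libraries and rose at 0.63 (adjusted p = 0.00477, SE 0.12). Larp4, a TOP mRNA stabiliser, rose at 0.64 (adjusted p = 0.00203, SE 0.10). The smallest p among those that fell belonged to the MYC antagonists Mxd4 at -1.39 (adjusted p = 2.44e-06, SE 0.06), Mxd1 at -1.23 (adjusted p = 3.13e-05, SE 0.09), and to Eif4ebp2, an mTOR target that blocks cap binding, at -0.65 (adjusted p = 9.21e-05, SE 0.06). Mtor measured 72.8, 70.2 and 69.6 CPM in the 3 C CM libraries and 70.6, 70.2 and 67.0 CPM in the 3 AC CM libraries, with overlapping groups and a log2 fold change of -0.03 (adjusted p = 0.758, SE 0.07). Eif4ebp1 was at -0.20 (adjusted p = 0.281, SE 0.13) and Rps6kb1, the kinase of the ribosomal protein S6, at 0.13 (adjusted p = 0.424, SE 0.10). Rps6 itself was at -0.16 (adjusted p = 0.0562, SE 0.05). These are mRNA levels, and kinase activity and translation were not measured.

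Markers of other cells moved between the groups, and their part in the ribosomal protein values was not tested. Of all genes tested, 13.3% rose and 13.3% fell. Macrophage markers were present in all libraries, with 12 genes summing to 21695.0 to 23079.9 CPM after C CM and 20221 to 20726 CPM after AC CM, of which 1 rose and 4 fell. Neutrophil and precursor markers fell in 10 of 12 tested genes, from 907 to 1054 CPM to between 198 and 213 CPM. B, T and NK cell markers fell in 12 of 12, from 172 to 201 CPM to between 30.3 and 34.2 CPM, and dendritic cell markers in 9 of 10, from 386 to 418 CPM to between 250.2 and 287 CPM. Fibroblast markers fell in 5 of 8, from 4253 to 5265 CPM to between 3474 and 3561 CPM. Chondrocyte markers rose in 2 of 8, from 75.4 to 88.6 CPM to between 113 and 114 CPM. Erythroid and megakaryocyte markers had 1 of 9 that rose and 3 that fell, at 304 to 365 CPM and then 477 to 509.7 CPM. Hepatocyte markers, with 2 of 13 that rose, summed to 40.5 to 87.9 CPM after C CM and to 72.7, 629 and 1408 CPM in AC CM replicates 1, 2 and 3. The shares that rose, 11.1% of erythroid and megakaryocyte and 15.4% of hepatocyte markers, are near that of all genes. Yet 12 of the 13 hepatocyte markers were above 0, with a median log2 fold change of 5.29. In 7 of the 13 all AC CM libraries lay above all C CM libraries, and in 1 all lay below. Over all genes 22.6% and 22.1% showed these patterns.

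In the authors' deposited table, 31 members were lower after AC CM at their adjusted p under 0.05, beside 8.94% of the 27127 genes for which that table gives a p, and 1 was higher. The members called lower in both analyses numbered 25, which is 25 of 31 in that table and 25 of 26 here.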

How the data were processed

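RNA was extracted from 6 macrophage samples, made into mRNA libraries and sequenced on an Illumina instrument, per the labels' protocols. The authors deposited whole-number read counts per gene without normalization, with totals from 65630784 to 80105872. The authors also deposited a normalized signal per sample (counts divided by a constant), which was not used. A log2 fold change and p-values, raw and adjusted, were deposited from a comparison by the authors, and only their calls were used. The submitters' processing notes name R 3.4.3, DESeq2 1.18.1, HISAT2 2.1.0 and fastp 0.17.1. Counting program, genome build, annotation and strand setting: not given in the sources used here. All 88 member IDs were found in GENCODE M21 (GRCm38), 79 with the same position.

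All genes were fitted together: filterByExpr, TMM scaling and edgeR's quasi-likelihood test with robust fitting (edgeR 4.0.16, R 4.3.3), no covariates beside group, and Benjamini-Hochberg adjustment over 17863 genes. The scripts were tested on simulated data. CPM uses TMM-scaled library sizes, and a level per kb divides by the annotated mature length. Rpl3l and Rpl10l did not pass the filter. No 2 libraries of a group were copies: the chi-square per gene ran from 27.2 to 63.2. Of 88 members, 49 overlap another gene, 22 on the other strand, and 12 are overlapped by a gene with 10% or more of their counts. Among those 12 are Rpl3, Rpl19, Rpl22l1, Rpl31, Rpl35, Rps12l1, Rps18, Rps25, Rps28 and Rps3a3. The 276 entries named as their pseudogenes, by a symbol with -ps, held 1.175% as many counts as the members. Pseudogenes under other symbols were not counted or summed.

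RefSeq promoter windows of GRCm38.p6 were matched by symbol for 63 members, and 57 subunit genes had one on their chromosome and strand. Named genes are the 12 members with the smallest p in each direction, the 5 highest and lowest per length, paralogs with their parents, the structural lists, ribosomal protein genes outside the naming rule, up to 3 genes per direction from each other list and 6 regulators. A few genes that this rule names are not reported here. Members named beyond these (Rps29, Rps28 among the largest changes, Rps24, Rpl24, Rps25, Rps21, Rpl37, Rpl38, Rps6) were chosen after their values were seen. The members and lists were chosen with earlier results of these data known, so counts over them are descriptions. Alternatives were other scalings, filters and tests (DESeq2 1.42.0, limma 3.58.1), a replicate block, counts divided by 4, pseudogene entries summed with their parents, and libraries left out.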

Additional observations from a re-analysis of the deposited data

How the results depend on the processing

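The 26 members that fell became 20 with no filter beyond a count above 0 and 38 with DESeq2, with the other scalings, filters and tests between them. The median log2 fold change stayed negative, from -0.263 to -0.175. Rescaling without the ribosomal protein genes also gave 26. Leaving out each library in turn gave 6 to 35 members that fell and 0 to 1 that rose, 3158 to 5023 genes called in all, 13 to 29 mitochondrial ribosomal proteins that rose and 1 to 2 that fell. It gave 3 to 5 initiation factors that fell, 3 to 6 elongation factors that rose, 3 to 8 other TOP genes that fell and a biogenesis median of 0.424 to 0.520.

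Without AC CM replicates 2 and 3 edgeR called 0 members lower and 0 higher (3 and 0 at an unadjusted p under 0.05, where 11.5% of all genes were lower) and 1274 genes in all. The same fit gave 2 mitochondrial ribosomal proteins that rose and 0 that fell, 14 biogenesis factors, 3 chaperones, 3 initiation factors and 2 elongation factors that rose, 0 initiation factors and 0 other TOP genes that fell, and a biogenesis median of 0.508. It has fewer samples, with a single AC CM library. 2 mitochondrial ribosomal proteins fell, in place of 1, with upper quartile scaling, the minimum of 1 CPM, DESeq2, counts divided by 4 and the replicate block; the cause was not tested.

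The replicate numbers were not taken to pair the samples: the deviations of same-numbered libraries had correlations of -0.116, -0.031 and -0.014 over all genes and of 0.018, 0.118 and 0.419 over the members, where C CM replicate 2 with AC CM replicate 1 gave 0.42. With the replicate block 31 members fell, 1 rose and 4397 genes were called.

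Some named genes changed sign. With a library left out, Rpl22 ran from -0.035 to 0.074, Rpl4 from -0.002 to 0.026, Rpl5 from -0.063 to 0.069 and Rps4l from -0.097 to 0.223. With upper quartile scaling Rpl4 was at -0.009 and Rpl5 at -0.011, and with pseudogenes summed Rpl5 was at -0.0. Without AC CM replicates 2 and 3, Rps25, at -0.192 with all libraries, was at 0.004 and Rps4l at -0.035. The causes were not tested. Over all named genes and settings, 1249 values kept direction and call, 36 passed the threshold anew, 109 lost it and 11 changed sign. At this depth 2 paralogs were too low to test.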
